A study of Mus musculus with 4 samples.

Results

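The genes Gdf3, Dppa3 and Nanog lie next to each other on mouse chromosome 6 and are all active in embryonic stem cells. They were examined in the 300 kb chr6:122500000-122800000 of the genome build mm10, taken as given. All peaks that touched this interval were used, which came to 43 of the 97795 H1foo peaks and 17 of the 47449 AE4 peaks on assembled chromosomes. Peaks were assigned to a gene where they touched its RefSeq span extended by 5 kb at each end, and otherwise to the sequence between genes. The member genes number 3 of 21774 protein-coding genes with a position on an assembled chromosome.

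Chromatin immunoprecipitation with sequencing had been done in embryonic stem cells of the mouse strain 129S4/SvJae that overexpress H1foo, which the growth protocol describes as a GFP fusion. No cells without that construct were analysed here, so every value below is from cells that overexpress H1foo. A rabbit polyclonal antibody against H1foo, raised in the laboratory, was used for 2 libraries, and the mouse monoclonal antibody AE4, used for the somatic H1 variants, for the other 2. The extraction text of the AE4 samples names the H1foo antibody, while their titles and antibody field name AE4; the titles and the field were followed. Neither the labels nor the files say whether AE4 also recognises H1foo, or whether the libraries of 1 antibody came from separate cultures.

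Each antibody has 1 deposited peak list, with no value per library. There is therefore no replicate error, no test between the antibodies, and every comparison below is a description of these 2 lists. Read depth is unknown, and a list made from more reads tends to hold more peaks. A missing peak thus means that no peak was called, not that the protein was absent. Scores are the authors' values per peak. They start at 50 in each list, with medians of 73.2 for H1foo and 63.8 for AE4, and are used to rank or select peaks within a list only.

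Linker histones bind the nucleosome where DNA enters and leaves it and help to fold chromatin. H1foo is the linker histone of the oocyte and is also present in the early embryo, while other cells use the somatic variants. Nanog encodes a homeodomain transcription factor that sustains self-renewal of embryonic stem cells. Gdf3 encodes a ligand of the transforming growth factor beta superfamily related to Nodal. Dppa3, also called Stella or PGC7, encodes a maternal factor that protects DNA methylation in the zygote and marks germ cell precursors. The sequence upstream of Nanog holds enhancers that are active in embryonic stem cells, and no enhancer annotation was used here.

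H1foo peaks were present at Gdf3 and Nanog, AE4 peaks at none of the 3 genes, and Dppa3 was without either. Of the 3 genes, 2 thus had an H1foo peak within 5 kb and 0 had an AE4 peak. Among all protein-coding genes, 62.6% had an H1foo peak in the same kind of window, 51.0% had an AE4 peak, 15.8% had H1foo without AE4 and 33.2% had neither. All 3 genes are short, and short genes had peaks less often. Among the 7856 genes under 10 kb, 48.0% had an H1foo peak, 35.2% an AE4 peak, 15.4% H1foo without AE4 and 49.4% neither. With 3 neighbouring genes, these shares are given for orientation and support no statement on the genes as a group.

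**Figure D1:**
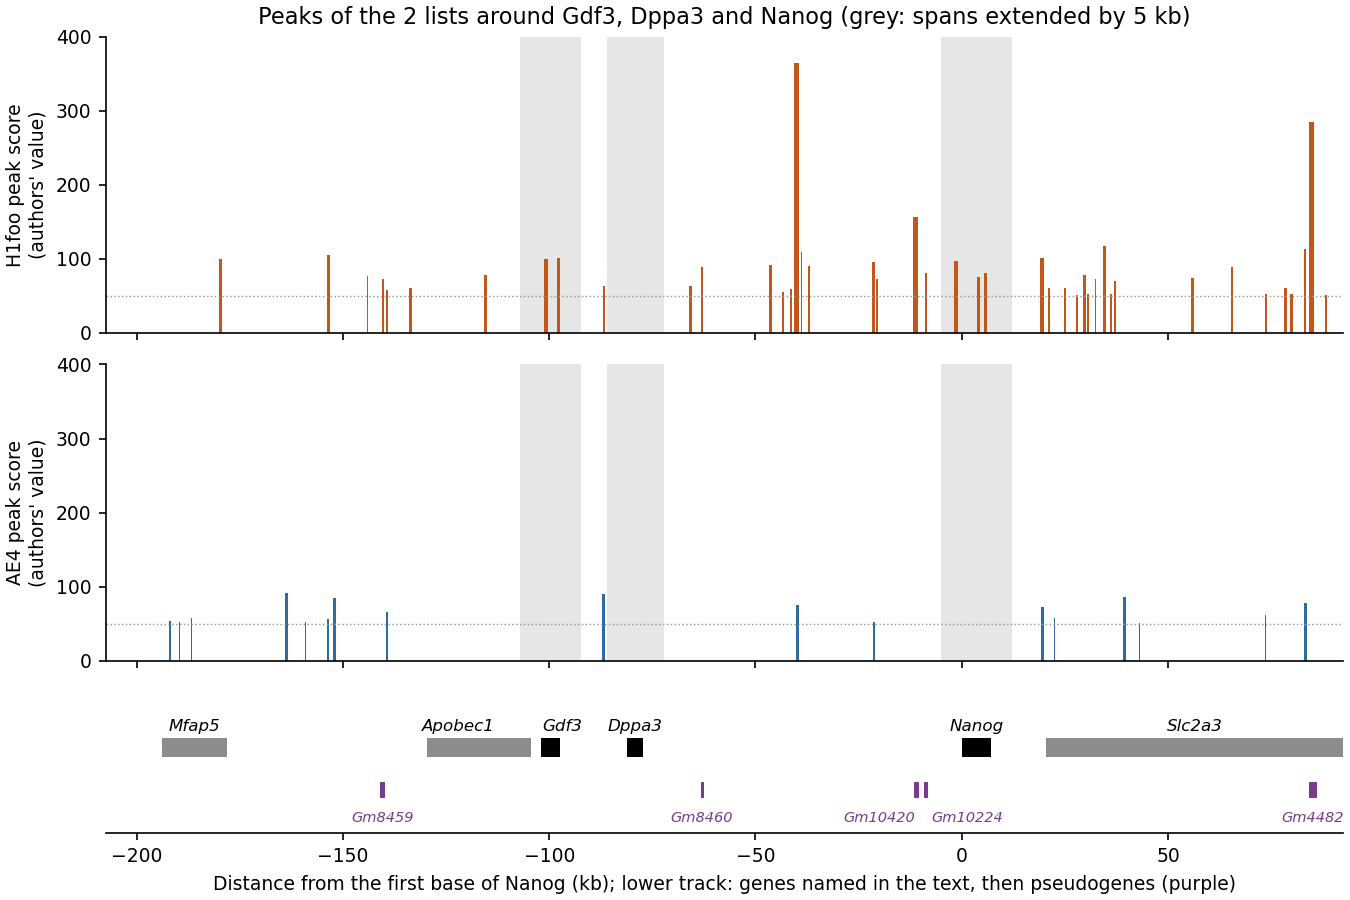
Score of each peak (authors' value, bar height; bar width is the peak) against distance from the first base of Nanog in kb, for the H1foo list (top, 43 peaks) and the AE4 list (middle, 17 peaks). The dotted line marks a score of 50, grey bands are the spans of Gdf3, Dppa3 and Nanog extended by 5 kb, and the lower track has the protein-coding genes named in the text and, in purple, pseudogenes. The highest H1foo bar, 364, stands about 40.1 kb before Nanog, and the band of Dppa3 holds no peak in either list.

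The window of Nanog (span 122707489 to 122714633, gene identifier 71950) held 3 H1foo peaks. The first ran from 122705670 to 122706470, ended 1019 bp before the gene and had a score of 96.6. The other 2 lay inside the gene, at 122711096 to 122711845 with a score of 75.0 and at 122712914 to 122713485 with a score of 81.3. Their scores exceeded those of 71.3%, 52.4% and 59.4% of the H1foo list, so none was among its highest. With scores of 100 or more alone, Nanog would have 0 H1foo peaks and Gdf3 would keep 2. Together the 3 peaks at Nanog covered 12.4% of the extended span. The nearest AE4 peaks were 20960 bp before the gene and 12013 bp after it, which left 40.1 kb around Nanog without an AE4 peak.

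The start of Nanog lay in the stretch between the first of these peaks and the second, and neither list had a peak over it. RefSeq gives starts at 122707489 and 122707565 on the plus strand. The window of the earlier start, from 250 bases before to 50 after it, is printed because it lies at the head of the gene. It is a fixed window inside a longer stretch without an H1foo peak, between the peak that ended at 122706470 and the one that began at 122711096. The printed window is chr6:122707239-122707538, plus strand, RefSeq on GRCm38.p6, whose chromosomes have the coordinates of mm10. Capitals mark TTTGCAT, part of the octamer bound by Oct4, and ACAATG, the core of a Sox site.
Nanog promoter: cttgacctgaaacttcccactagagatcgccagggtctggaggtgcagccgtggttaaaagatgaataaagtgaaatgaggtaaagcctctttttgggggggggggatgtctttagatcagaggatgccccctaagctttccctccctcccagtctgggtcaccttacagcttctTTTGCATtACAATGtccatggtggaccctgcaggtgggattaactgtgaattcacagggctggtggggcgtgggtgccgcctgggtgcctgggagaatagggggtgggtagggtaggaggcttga

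The joined octamer and Sox elements in this promoter are a known binding site of Oct4 and Sox2. TTTGCAT began 75 bases before the earlier start and ACAATG began 67 bases before it. On either strand, TTTGCAT was found in 4.63% and ACAATG in 12.6% of 32851 RefSeq promoter windows of 300 bp. The full octamer ATTTGCAT, which contains TTTGCAT, was in 1.74% of windows and not in this one. The Esrrb site AAGGTCA (4.72% of windows) and the GC box GGGCGG (35.7%) were also not found in it. The window had a GC content of 54.3% and 4 CpG, against medians of 52.7% and 7.00 over all windows. It lay 769 bp from the nearest H1foo peak and 19108 bp from the nearest AE4 peak. The window of the later start was 845 bp and 19032 bp from them, and that of Apobec1, the other gene of the interval with a window in the table, 3580 bp and 17596 bp. An H1foo peak touched 12.4% of all such windows and an AE4 peak 2.49%, so a start without a peak was the common case in each list.

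The window of Gdf3 (span 122605403 to 122610087, gene identifier 14562) held 2 H1foo peaks, each touching the gene. The peak from 122606274 to 122607153 was 880 bp wide with a score of 100.5 and lay wholly inside the gene. The peak from 122609427 to 122610117 was 691 bp wide with a score of 102 and crossed the boundary at the higher coordinate. These scores exceeded those of 73.5% and 74.2% of the H1foo list, close to the rank of the peak before Nanog. The 2 peaks covered 10.7% of the extended span. The next H1foo peaks lay 13035 bp below and 10343 bp above the gene. The nearest AE4 peaks were 37083 bp below and 10203 bp above it. The resulting 52.0 kb without an AE4 peak was the longest of the 18 AE4 gaps that touched the interval.

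Dppa3 (span 122626424 to 122630271, gene identifier 73708) had no peak of either list in its span or within 5 kb of it. The nearest H1foo peak, at 122620430 to 122620972 with a score of 64.1, lay 5452 bp below the gene, and the next above it began 11202 bp away. The stretch without an H1foo peak around Dppa3 was 20.5 kb long, the third longest of 44 H1foo gaps that touched the interval, whose median was 2.58 kb. For AE4 the stretch was 46.3 kb, the second longest of 18 with a median of 14.4 kb. Genes without a near peak were frequent: 37.0% of all protein-coding genes had their nearest H1foo peak farther away than Dppa3, and 48.5% their nearest AE4 peak. Among genes under 10 kb, to which Dppa3 belongs, these shares were 51.4% and 64.2%.

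The peak nearest Dppa3 in each list was the same place. The AE4 peak at 122620290 to 122621079, 790 bp wide with a score of 89.8, contained the whole H1foo peak of 543 bp. Its score exceeded that of 81.0% of the AE4 list, while the H1foo peak exceeded 36.5% of its own. These were the only peaks in the 6.34 kb between the windows of Gdf3 and Dppa3. A window of 10 kb in place of 5 kb would give Dppa3 this peak in each list, leave Gdf3 with 2 H1foo peaks and 0 AE4 peaks, and give Nanog 4 and 0.

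**Figure D2:**
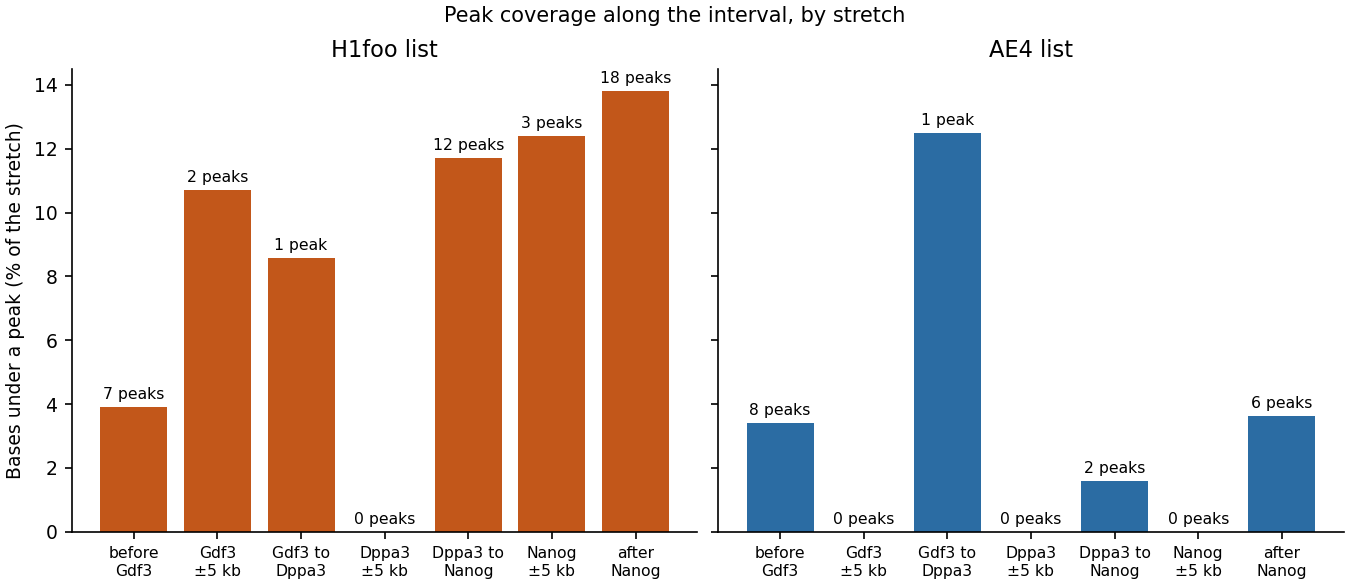
Bases under a peak as a percentage of each of 7 stretches of the interval, for the H1foo list (left) and the AE4 list (right); numbers above the bars are peaks, and there are no replicates to give an error. H1foo covered 10.7% of the Gdf3 window, 11.7% between Dppa3 and Nanog and 12.4% of the Nanog window, where AE4 covered 0%, 1.59% and 0%. The AE4 bar of 12.5% rests on 1 peak in a short stretch.

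The 67.2 kb between the windows of Dppa3 and Nanog held 12 H1foo peaks and 2 AE4 peaks. H1foo peaks covered 11.7% of it and AE4 peaks 1.59%. Scores of the H1foo peaks had a median of 89.9 and ranged from 54.7 to 364. The highest lay at 122666755 to 122668059, 1305 bp wide, with its centre 40.1 kb before the start of Nanog. It ranked 950 of 97795 in the H1foo list by score and was wider than 94.5% of the peaks there. An AE4 peak of 549 bp at 122667425 to 122667973, with a score of 74.9, lay wholly within it.

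This peak was part of a run of 6 H1foo peaks less than 5 kb apart, which spanned 9.91 kb and ended 36.8 kb before Nanog. The others of the run had scores of 91.6, 54.7, 59.5, 109 and 90.9 in the order of the chromosome. Only the highest of the 6 overlapped an AE4 peak. Nearer to Nanog, 2 further runs of 2 peaks ended 20.2 kb and 8.34 kb before the gene. The nearer one held the third highest H1foo score of the interval, 157, at 122695721 to 122696792. The farther one held the second place shared with AE4 in this stretch, where the peaks had scores of 95.5 for H1foo and 51.7 for AE4.

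Before Gdf3, in 100403 bp that include Mfap5 and most of Apobec1, there were 8 AE4 peaks and 7 H1foo peaks. Mfap5 encodes a protein of elastic microfibrils and Apobec1 a cytidine deaminase that edits messenger RNA. The extended span of Mfap5 held 1 H1foo and 3 AE4 peaks and that of Apobec1 3 and 0, with 1 of its 3 H1foo peaks being the lower peak inside Gdf3. After Nanog, in 80.4 kb taken up mainly by the glucose transporter gene Slc2a3, there were 18 H1foo peaks and 6 AE4 peaks. H1foo peaks were thus 6.97 per 100 kb before Gdf3, 17.9 between Dppa3 and Nanog and 22.4 after Nanog, and AE4 peaks 7.97, 2.98 and 7.47. Of these 3 stretches, the one between Dppa3 and Nanog had the lowest AE4 density and not the lowest H1foo density. The AE4 values rest on 8, 2 and 6 peaks, and with no replicate the difference between stretches has no test.

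Over the interval, 8 of 43 H1foo peaks overlapped an AE4 peak by at least 1 bp, or 18.6% (exact Clopper-Pearson 95% interval 8.39 to 33.4%, for counting error only). In the whole H1foo list the share was 24.1%, inside that interval. Of the 17 AE4 peaks, 8 or 47.1% overlapped an H1foo peak (23.0 to 72.2%), against 51.2% in the whole AE4 list. These intervals treat neighbouring peaks of 1 list as independent, and no test was made. The 8 shared H1foo peaks had a median score of 98.3 and the 35 others 75.0, and their ranges, 52.6 to 364 and 50.7 to 284, overlapped almost wholly. The 5 H1foo peaks in the windows of Gdf3 and Nanog could not be among the shared ones, because no AE4 peak touched these windows.

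**Figure D3:**
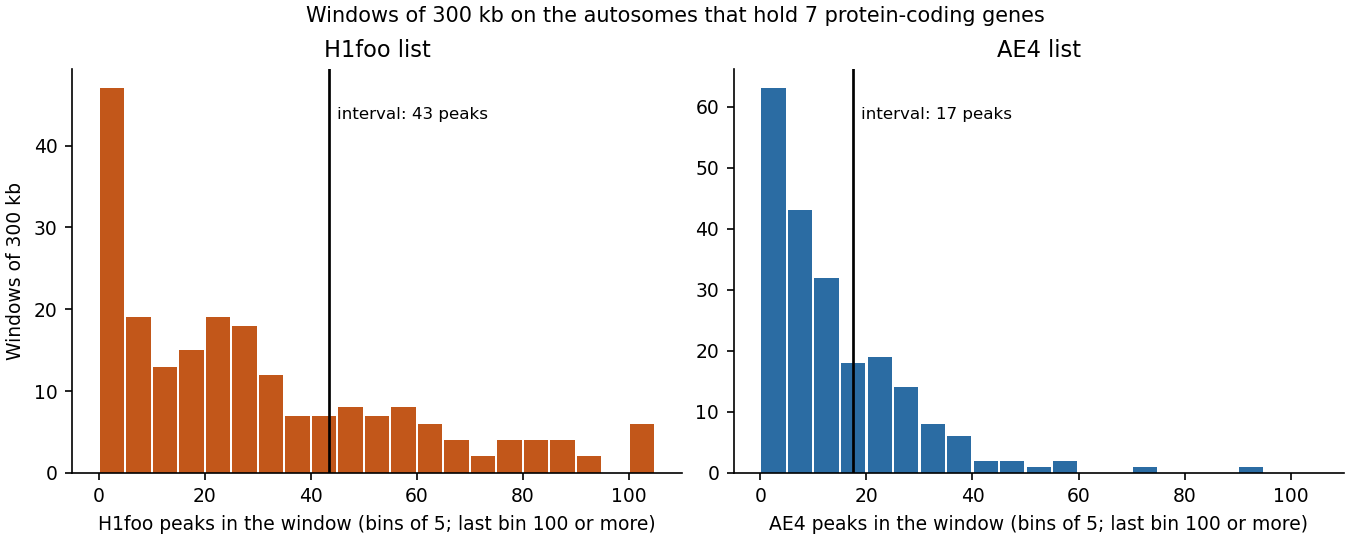
Number of 300 kb windows (y axis) by number of peaks in the window (x axis) for the 212 autosomal windows with 7 protein-coding genes, H1foo left and AE4 right; the black line is the interval. The interval, with 43 and 17 peaks, lies to the right of most windows in each panel and far from the highest.

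The interval was rich in peaks of each antibody against all windows, and less so against windows with as many protein-coding genes. The 19 autosomes were cut into 7994 windows of 300 kb, of which the interval is one. It had more H1foo peaks than 90.4% of them and more AE4 peaks than 89.2%, against a median of 2 for each. Among the 212 windows that also touched 7 protein-coding genes, the medians were 23 H1foo and 9.5 AE4 peaks, and the interval exceeded 72.2% and 68.4%. Its ratio of 2.53 H1foo peaks to 1 AE4 peak was higher than the 2.06 of the lists. Of 1531 windows with at least 20 H1foo peaks and any AE4 peak, 57.0% had a lower ratio, and the median ratio of these windows was 2.40. They were chosen by their number of H1foo peaks, which enters the ratio, so its place among them depends on that choice.

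Every pseudogene of the interval overlapped an H1foo peak, which covered 43.0 to 100% of it. This was seen on inspection of the peaks, and the count was added afterwards. The RefSeq table lists 5 pseudogenes there, and all 5 had an H1foo peak, where 10.1% of 9853 pseudogenes did so in the genome, and 0 of 5 had an AE4 peak, where 5.04% did so. Pseudogenes in peak-rich sequence had peaks more often: in windows with at least as many H1foo peaks as the interval the shares were 37.4% and 16.4% of 781. These windows were chosen by their number of H1foo peaks, so a higher H1foo share is in part built into the choice. The interval and its 5 pseudogenes are among them. Peaks on pseudogenes made up 5 of 43 H1foo peaks of the interval or 11.6%, against 1.23% in the list. For AE4 they made up 0 of 17, against 1.26% in the list. These shares also depend on how densely pseudogenes lie in the sequence compared, for which no adjustment was made.

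**Figure D4:**
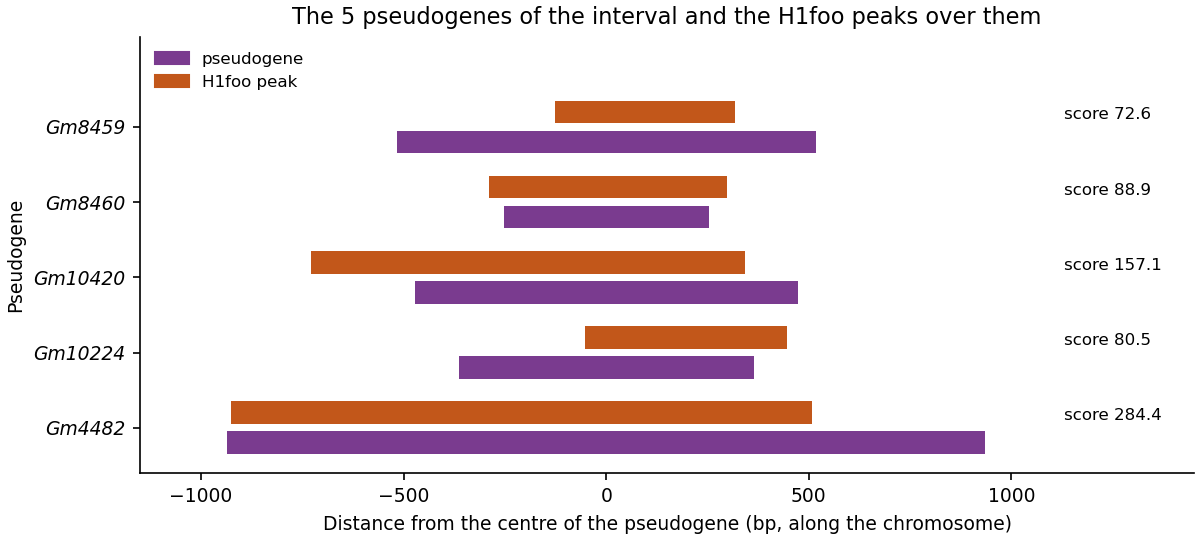
Position of the H1foo peak (orange) over each of the 5 pseudogenes of the interval (purple), in bp from the centre of the pseudogene along the chromosome, with the peak's score at the right. Over Gm8460 the peak covers the whole pseudogene, and over Gm4482, the longest with 1871 bp, it starts near the lower end and has the highest score of the 5, 284.

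The closest fit was at Gm8460, of 508 bp at 122644274 to 122644781, between Dppa3 and Nanog. Its peak was 586 bp wide, covered 100% of it and had its centre 4 bp from that of the pseudogene. Gm10420, at 122695978 to 122696923, was covered to 86.2% by the peak with the score of 157. Its neighbour Gm10224, at 122698341 to 122699068, was covered to 57.1% by a peak with a score of 80.5. These 3 pseudogenes lay between Dppa3 and Nanog and accounted for 3 of the 12 H1foo peaks there.

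Gm4482, at 122791545 to 122793415 inside the annotated span of Slc2a3, was covered to 76.6%. Its peak ranked 1952 of 97795 by score and was the second highest of the interval. Gm8459, at 122566511 to 122567545 before Apobec1, was covered to 43.0% by a peak with a score of 72.6. AE4 peaks lay close to 2 of the 5 without touching them, 412 bp from Gm8459 and 465 bp from Gm4482. A small nucleolar RNA gene of 141 bp, LOC115490479 at 122641554 to 122641694, also overlapped an H1foo peak, as did 5.04% of 1330 such genes in the genome. Pseudogenes resemble other sequences of the genome, and the sources used here do not say how reads that match several places were handled. The part of such reads in these peaks was not tested.

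Other genes of the pluripotency network were read in the same way, over spans extended by 5 kb. Of 25 genes, 21 had an H1foo peak and 11 an AE4 peak, where 62.6% and 51.0% of all protein-coding genes did. H1foo without AE4 was seen at 11 of the 25, against 15.8% of all genes, and neither at 3, namely Klf5, Nr0b1 and Zfp42, against 33.2%. The 11 with H1foo without AE4, as at Gdf3 and Nanog, were Dppa2, Dppa5a, Fgf4, Klf4, Lefty1, Pou5f1, Prdm14, Tbx3, Tdgf1, Tet1 and Utf1. Sox2 was the sole gene of the list with AE4 and no H1foo peak. This rests on the 5 kb limit: its AE4 peak, with a score of 50.8, lay 4625 bp from the gene, and the nearest H1foo peak 6159 bp. The highest H1foo scores were at Dnmt3l (346.5), a cofactor of DNA methylation, Esrrb (303.8), an orphan nuclear receptor, Sall4 (272.6), a zinc finger factor, and Lefty1 (233.1), an inhibitor of Nodal. The highest AE4 scores were at Dnmt3l (147.2), Klf2 (122.9), Esrrb (113.8) and Tcl1 (111.6). The highest H1foo scores at Nanog and Gdf3 were 96.6 and 102. The 4 H1foo values above them were picked as the highest of the 25 genes, so their order carries no further meaning. Each is also the highest of a different number of peaks, such as 47 at Esrrb against 3 at Nanog.

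**Figure D5:**
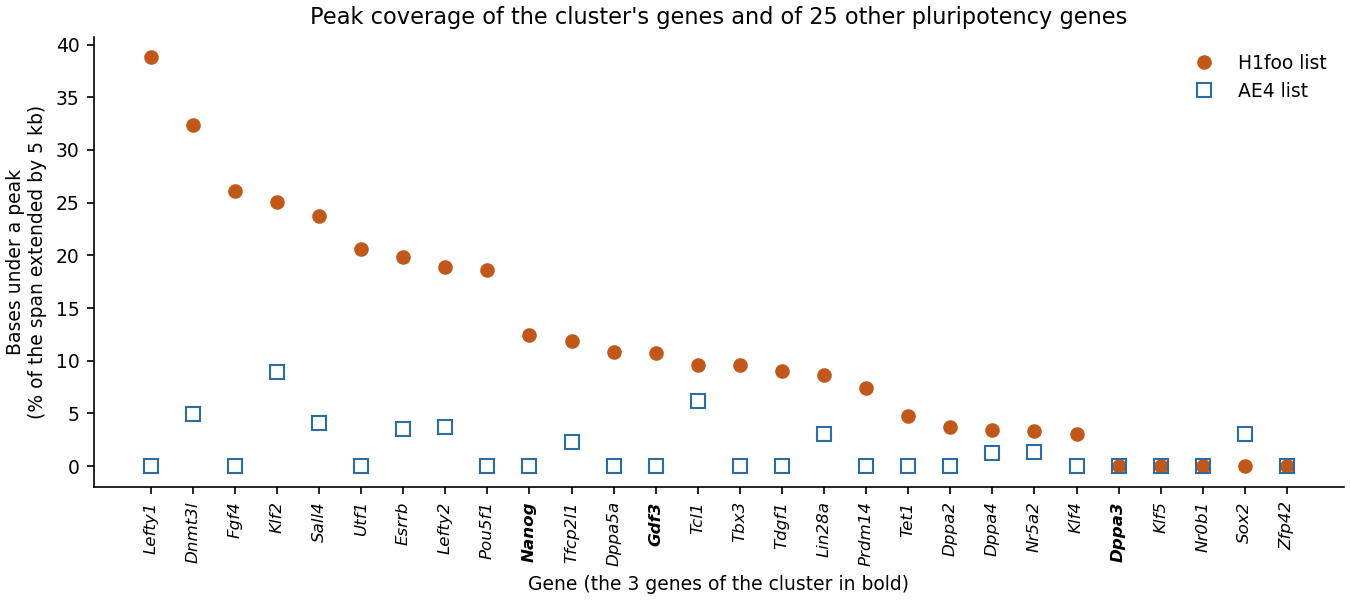
Bases under a peak as a percentage of the span extended by 5 kb (y axis) for 25 pluripotency genes and, in bold, Gdf3, Dppa3 and Nanog (x axis, ordered by H1foo coverage); filled circles are the H1foo list and open squares the AE4 list, 1 value per list. Nanog (12.4%) and Gdf3 (10.7%) stand mid-range for H1foo with AE4 at 0%, and Dppa3 is at 0% in each list.

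By coverage, Nanog and Gdf3 stood close together and above most genes. H1foo peaks covered 12.4% of the Nanog window and 10.7% of that of Gdf3, more than in 76.0% and 73.8% of all protein-coding genes, whose median was 1.84%. The genes compared include those without an H1foo peak, since 62.6% had one, and were not matched for length. The median of the 25 pluripotency genes was 9.57%. The gene of that list most like Gdf3 in H1foo and AE4 coverage was Dppa5a, an RNA-binding protein gene of embryonic stem cells, with 10.8% and 0%, followed by Tbx3 (9.57% and 0%) and Tdgf1 (9.06% and 0%). For Nanog it was also Dppa5a, then Tfcp2l1 (11.9% and 2.26%) and Tbx3. Dppa3 shared its 0% for each antibody with Klf5, Nr0b1 and Zfp42. This likeness rests on 2 values per gene, 1 from each list.

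Gdf3 is related to the ligand Nodal, and a list of 17 genes held the Nodal pathway and the ligand genes Bmp2 and Bmp4 of the neighbouring BMP pathway. Of the 17, 13 had an H1foo peak and 11 an AE4 peak, where 62.6% and 51.0% of all protein-coding genes did. H1foo without AE4 was seen at 2 and neither at 4, against 15.8% and 33.2% of all genes, and 2 of those 4 were the BMP genes. Nodal itself had 6 H1foo peaks with scores up to 148.9 and 1 AE4 peak. The highest H1foo scores of this list were at Gdf1 (965.5), whose span is nearly that of Cers1 so that its peaks are not its own alone, Acvr2b (366.4), which encodes a receptor, Lefty1, and the cofactor gene Foxh1 (214.1). The highest AE4 scores were at Gdf1 (337.4), Pcsk6 (98.8) and Furin (83.3), which encode proprotein convertases, and the receptor gene Acvr1b (78.7). The co-receptor gene Tdgf1 and Lefty1, which also belong to the pluripotency list, were those 2 with H1foo without AE4, as at Gdf3. Acvr1c and Acvr2a, which encode receptors, had neither, like Bmp2 and Bmp4.

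Of 12 genes tied to maternal factors and DNA methylation, the setting in which Dppa3 acts, 9 had an H1foo peak and 7 an AE4 peak, where 62.6% and 51.0% of all protein-coding genes did. Nlrp5 and Tet3, 2 of the 12, had neither, like Dppa3 and 33.2% of all genes. The highest H1foo scores were at Npm2 (273.6), an oocyte histone chaperone gene, Dnmt3a (272.9) and Dnmt3b (224.0), the de novo methyltransferase genes, and Uhrf1 (218.2), whose protein brings maintenance methylation to newly made DNA and binds Dppa3. The highest AE4 scores were at Npm2 (145.5), Dnmt3a (135.5), Uhrf1 (128.8) and Dnmt3b (97.1). The members of these 3 lists differ in length from Gdf3, Dppa3 and Nanog, and no test was made of their shares.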

How the data were processed

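The data were 4 libraries, 2 per antibody. The aligner was Bowtie 1.1.2 with mm10, per the submitters' processing notes, and MACS called the peaks, per the file headers; the sources used here do not give the version of MACS, any input control or the way 2 libraries became 1 list. The deposited files hold positions and a score per peak, the authors' value, on a scale that is not named. Starts were converted to positions counted from 1. Peaks were counted with at least 1 bp of overlap in Python 3.11.15 with pandas 2.3.3, and the counting was tested on made-up peaks against a plain loop. Genes, pseudogenes and promoter windows came from RefSeq tables on GRCm38.p6; genes on scaffolds were left out. Windows of 300 kb started past the first 3 Mb of each autosome, in step with the interval. No test was made, because the lists hold no value per library. Depth per library is unknown. The members and the gene lists were chosen with earlier results of these data known. Genes named were the members, the other protein-coding genes of the interval (1 result is not reported here), for each member the 3 most alike in coverage, and up to 4 per list with the highest scores; genes without a peak, or with a peak in 1 list only, were named after their values were seen, as were the pseudogenes.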

Additional observations from a re-analysis of the deposited data

How the results depend on the processing

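Of 102 values under other settings, 72 stayed within 1.5 times the reported count or inside the binomial interval of the reported share. The other 30 did not, mostly because a higher score leaves fewer peaks. Some of the 72 could not have moved. Where the reported count was 0, a narrower span, a higher score or assignment by peak centre could only give 0 again. Assignment by peak centre, an interval longer by 100 kb at each end, and every other overlap rule moved nothing beyond the 1.5 times or the binomial interval. The longer interval held 61 H1foo and 21 AE4 peaks, against 43 and 17. Its added ends thus held fewer peaks per kb of each list than the interval itself. For the overlap shares that interval is wide, since they rest on 43 and 17 peaks. With peaks extended by 500 bp, 30.2% of H1foo and 58.8% of AE4 peaks were shared, against the reported 18.6% and 47.1%. With peaks cut to 200 bp, 14.0% and 35.3% were. With scores at or above the list median, the interval held 25 H1foo and 8 AE4 peaks, and with scores of 100 or more 10 and 0. In that order of settings, H1foo peaks were 0 and 0 between Gdf3 and Dppa3, 4 and 1 before Gdf3, and 7 and 4 after Nanog. AE4 peaks were 1 and 0 between Dppa3 and Nanog, 3 and 0 before Gdf3, and 3 and 0 after Nanog. At scores of 100 or more, H1foo kept 3 peaks between Dppa3 and Nanog and 0 at Nanog, and AE4 had 0 between Gdf3 and Dppa3. AE4 peaks with such scores were at 4 pluripotency, 1 Nodal list and 3 maternal methylation genes. The share of all protein-coding genes at that cut was not computed, so these gene counts cannot be set beside the 51.0% without a cut. The cut is not at the same rank in each list. A score of 100.5 exceeded 73.5% of the H1foo list, while 91.1 already exceeded 81.9% of the AE4 list. Counts at that cut are therefore not compared between the lists. With spans extended by 10 kb, Dppa3 gained 1 peak in each list. Windows with as many genes put the interval above 72.2% for H1foo and 68.4% for AE4; genes under 10 kb had a peak in 48.0% and 35.2%; and, an alternative added after the data were seen, pseudogenes in peak-rich windows in 37.4% and 16.4%. No paired analysis was possible because each antibody has 1 peak list with no value per library, and for the same reason no library could be left out.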

Other observations

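Over the whole genome, pseudogenes carried peaks more often than the sequence beside them. H1foo peaks touched 10.1% of 9853 pseudogenes. Stretches of the same length moved by 1500, 3000 or 5000 bp to either side were touched in 5.80%, 5.43% and 5.18% of cases. For AE4 the share was 5.04% at the pseudogenes and 3.38%, 3.34% and 3.39% beside them. At least 50% of the bases lay under an H1foo peak at 4.92% of pseudogenes, and at 4 of the 5 in the interval. These shares were computed after the 5 pseudogenes near Nanog had been seen, and no test was made.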
